A study of Mus musculus with 12 samples.

Results

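The core circadian clock was followed through 10 genes: Arntl, Clock, Per1, Per2, Per3, Cry1, Cry2, Nr1d1, Dbp and Tef. Every probe with 1 of these names was taken, which gave 21 of the 41174 probes on the array, for 10 of its 27962 gene names. All 21 entered the tests. Hearts came from male C57BL/6 mice, and all of them carried a floxed glucocorticoid receptor (GR) gene. The cardioGRKO mice also carried Cre recombinase under the cardiomyocyte promoter αMHC, and the GRflox controls were littermates without Cre. Each genotype was sampled at 1 month and at 2 months, with 3 whole hearts in each of the 4 groups. No control carried Cre, so Cre itself and loss of GR cannot be told apart. Whole hearts also hold cells in which αMHC-Cre is not active, and the hour of collection is not given in the sources used here.

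The clock is a feedback loop of transcription factors. CLOCK and BMAL1, the product of Arntl, bind E-box sequences as a pair and switch on the Per and Cry genes, whose proteins then repress that pair. In a second loop the same pair switches on Nr1d1, which encodes the nuclear receptor REV-ERBα, and REV-ERBα represses Arntl. DBP and TEF are output factors that bind D-box sequences, and NFIL3 represses from the same sites. In tissues such as the heart, transcripts of the activator arm and of the output arm rise and fall at opposite times of day. Glucocorticoids are known to set peripheral clocks, and Per1 is a known direct target of GR.

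Promoter stretches of RefSeq genes (GRCm38.p6) are shown because they hold the letters through which the loop is known to work. Windows ran from 250 bases before to 50 bases after an annotated start and were present for 9 of the 10 genes, with 14 windows in all. The E-box letters CACGTG, which read the same on both strands, stood in 7.15% of all 32851 windows and in windows of 3 members (Per1, Cry1 and Tef). The D-box letters TTATGTAA, or TTACATAA on the other strand, stood in 0.938% of windows and in that of 1 member, Per3. The half-site AGGTCA, or TGACCT on the other strand, stood in 16.3% of windows and in those of 3 members (Per1, Arntl and Clock). In the stretches shown no match overlaps another. Capitals mark the matches in the stretches below, each 5′ to 3′ on the strand of the gene; they describe letters and not binding. Ciart, which encodes a repressor of the CLOCK and BMAL1 pair, is added because it followed Dbp in the data below.
Per1, chr11:69098749-69098848, + strand: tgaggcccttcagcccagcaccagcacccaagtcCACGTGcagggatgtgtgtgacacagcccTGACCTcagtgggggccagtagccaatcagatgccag
Cry1, chr10:85185065-85185164, - strand: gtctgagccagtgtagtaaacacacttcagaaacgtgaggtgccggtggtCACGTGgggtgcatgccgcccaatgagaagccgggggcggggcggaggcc
Tef, first start, chr15:81802493-81802592, + strand: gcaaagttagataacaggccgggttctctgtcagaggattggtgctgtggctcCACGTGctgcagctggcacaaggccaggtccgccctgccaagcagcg
Tef, second start, chr15:81811234-81811333, + strand: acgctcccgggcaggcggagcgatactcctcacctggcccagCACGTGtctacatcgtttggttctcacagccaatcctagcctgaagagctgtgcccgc
Per3, chr4:151044796-151044895, - strand: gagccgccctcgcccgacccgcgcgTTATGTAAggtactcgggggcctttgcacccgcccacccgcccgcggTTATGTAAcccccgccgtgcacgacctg
Ciart, chr3:95882264-95882363, - strand: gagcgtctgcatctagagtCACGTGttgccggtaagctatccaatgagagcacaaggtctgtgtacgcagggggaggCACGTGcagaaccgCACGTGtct
Arntl, second start, chr7:113207530-113207559, + strand: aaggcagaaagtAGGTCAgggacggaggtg
The Per1 stretch carried its E-box 166 bases before the start and the half-site 137 bases before it. The Tef E-boxes lay 127 and 138 bases before their starts and that of Cry1 60 bases before. Per3 held the D-box letters at 205 and at 158 bases before its start. Ciart held 3 E-boxes, at 116, 58 and 44 bases before the start. In Arntl the half-site lay 31 bases after the start.

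Levels are on the log2 scale relative to the signal at each array's 75th percentile, so 0 is a bright probe and 1 unit is a doubling. They are compared between hearts for the same probe and never between probes. The probes behind the levels described most are printed here, with positions from the array annotation (mouse build mm7), because the measured value is that of these letters and other probes of a gene can differ.
Arntl A_52_P267651, chr7:109229489-109229548, + strand: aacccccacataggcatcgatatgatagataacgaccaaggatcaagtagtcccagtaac
Nr1d1 A_51_P223776, chr11:98878251-98878753, - strand: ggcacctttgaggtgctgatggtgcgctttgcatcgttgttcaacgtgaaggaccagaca
Per2 A_52_P536869, chr1:91347406-91347465, - strand: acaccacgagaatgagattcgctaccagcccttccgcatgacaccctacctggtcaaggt
The annotated position of the Nr1d1 probe is longer than its 60 letters. Where a gene has several probes, the probe with the highest mean is described first.

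Probes of the deleted receptor gene, Nr3c1, were lower in the cardioGRKO hearts. Over both ages 3 of its 4 probes passed, with changes of -1.07 (A_52_P138090, SE 0.09, adjusted p = 0.00165), -1.06 (A_52_P254174, SE 0.10, adjusted p = 0.00453) and -0.94 (A_52_P63106, SE 0.14, adjusted p = 0.0261). The 75th percentile of the signal was 881 to 1549 intensity units per array, and pairs of arrays correlated at 0.934 to 0.986. On 3 arrays 79.4% to 82.2% of probes were well above background, against 67.5% to 74.0% on the other 9. They are cardioGRKO_1month replicate 1 and cardioGRKO_2month replicate 3, which shared slide 4 and a second scan day, and GRflox_2month replicate 2. Slide 1 held the GRflox hearts of 1 month alone, so in comparisons with these hearts slide and group cannot be told apart. The 21 probes were well above background on all 12 arrays, except Cry1 A_51_P302204 with 11, and none was saturated.

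Dbp (A_51_P180492) varied more between hearts than between groups. At 1 month the GRflox hearts read 2.76, 2.14 and 6.28 and the cardioGRKO hearts 3.47, 3.75 and 5.92. At 2 months the GRflox hearts read 5.12, 6.14 and 3.54 and the cardioGRKO hearts 5.46, 4.14 and 4.39. A single heart stood high in each of the 1-month groups, and the ranges of all 4 groups overlapped. The group means were 3.72 ± 2.23 and 4.38 ± 1.34 at 1 month and 4.93 ± 1.31 and 4.66 ± 0.70 at 2 months (GRflox, then cardioGRKO, SD, n = 3). The lowest and highest of the 12 hearts, both GRflox hearts of 1 month, differed 17.6-fold. The within-group SD of Dbp was larger than that of 96.8% of the probes tested. The median SD was 0.602 over the 21 clock probes and 0.253 over all probes.

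Arntl, the activator, ran the other way. At 1 month the GRflox hearts read 0.74, 1.08 and -1.46 and the cardioGRKO hearts 0.36, 0.26 and -1.29. At 2 months the GRflox hearts read -0.47, -0.53 and 0.74 and the cardioGRKO hearts -1.13, 0.16 and -0.14. In each of the 4 groups the heart with the highest Dbp had the lowest Arntl, and the order of the 3 hearts by Arntl was the exact reverse of that by Dbp. The same held within slides 1, 3 and 4, which hold 3, 3 and 2 arrays. On slide 2, with 4 arrays, the rank correlation was -0.8. Arntl spanned 5.83-fold over the 12 hearts, and its within-group SD of 0.97 lay above that of 84.1% of probes.

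**Figure D1:**
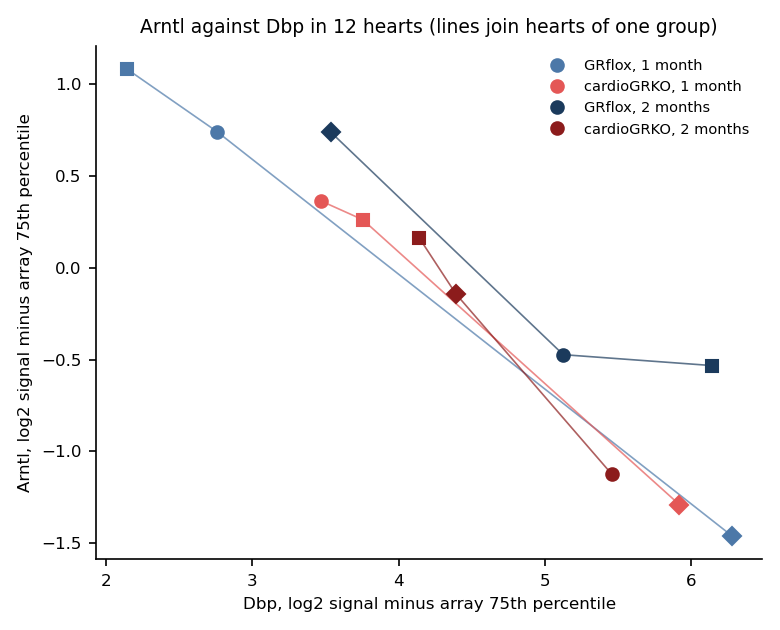
Arntl (vertical axis) against Dbp (horizontal axis), both as log2 signal relative to the array's 75th percentile, for 12 hearts; colours mark the 4 groups, circles, squares and diamonds mark replicates 1, 2 and 3, and lines join the hearts of a group. Every line falls from left to right, from an Arntl level of 1.08 at a Dbp level of 2.14 to -1.46 at 6.28.

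Across the 12 hearts Arntl and Dbp correlated at r = -0.95 (rho = -0.97, permutation p = 1e-05 for both, the smallest that 1e+05 permutations can give, adjusted p = 9e-05 over 9 pairs). Without the 2 hearts farthest from the Arntl median, the third replicates of both 1-month groups, r was -0.93. It was -0.98 for deviations from group means and -0.95 for deviations from slide means. Tef (r = -0.85, rho = -0.94, permutation adjusted p = 0.00211 and 0.00036) and Nr1d1 (r = -0.80, rho = -0.84, permutation adjusted p = 0.00783 and 0.00375) ran against Arntl as well. Without the 2 farthest hearts these were -0.87 and -0.72, and for deviations from group means both were -0.96. With the median in place of the 75th percentile as the scale, Nr1d1 gave -0.54 and an adjusted permutation p of 0.122, so its call rests on the scaling.

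Of the first-described probes of the remaining members, none had a correlation with Arntl as large as these. Per1 gave r = -0.65 (rho = -0.64, permutation adjusted p = 0.0423 and 0.0541) and -0.85 for deviations from group means. Clock, the partner of BMAL1, gave r = 0.69 (rho = 0.64, permutation adjusted p = 0.0293 and 0.0541), which fell to 0.40 without the 2 farthest hearts and rests on them. With the median as the scale neither of these passed (r = -0.48, adjusted permutation p = 0.151, and r = 0.57, adjusted permutation p = 0.122). Cry1 (r = 0.53), Per3 (r = -0.51), Cry2 (r = -0.27) and the brighter Per2 probe (r = 0.08) did not pass, with adjusted permutation p of 0.114, 0.116, 0.443 and 0.814. Without the 2 farthest hearts the value for Cry2 was -0.76 and that for Cry1 was 0.21, so both values depend on those hearts. Per3 passed under the median scale (r = -0.83, adjusted permutation p = 0.00508) and under quantile normalization (r = -0.65, adjusted permutation p = 0.0369).

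Tef, the other output factor among the members, read 0.85, 0.22 and 2.38 in the GRflox and 1.06, 1.37 and 2.23 in the cardioGRKO hearts at 1 month. At 2 months it read 2.23, 2.36 and 1.68 in the GRflox and 2.48, 2.05 and 1.92 in the cardioGRKO hearts. The high hearts of the 1-month groups were those with high Dbp. Nr1d1, the repressor of Arntl, read -0.20, -0.10 and 1.39 in the GRflox and -0.11, 0.02 and 0.77 in the cardioGRKO hearts at 1 month. At 2 months it read 0.96, 1.27 and 0.47 in the GRflox and 0.71, 0.35 and 0.14 in the cardioGRKO hearts. Again the third replicate was highest in both 1-month groups. The groups of both genes overlapped between genotypes at each age.

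Per1 (A_52_P79889), the period gene known as a target of GR, read 0.20, -0.13 and 0.99 in the GRflox and -0.09, -0.30 and 0.28 in the cardioGRKO hearts at 1 month. At 2 months it read 0.79, 1.02 and -0.25 in the GRflox and 0.15, -0.22 and 0.29 in the cardioGRKO hearts. The highest hearts were GRflox hearts at both ages, with overlap between genotypes. Cry2, a repressor of the pair, read -0.36, -0.97 and -0.96 in the GRflox and -0.79, -0.39 and -0.20 in the cardioGRKO hearts at 1 month. At 2 months it read 0.01, 0.37 and -0.36 in the GRflox and 0.08, 0.10 and -0.26 in the cardioGRKO hearts. Both genotypes overlapped at each age. Clock was the steadiest member by its within-group SD of the first-described probes: 0.23, at the percentile of 45.7 among all probes, with levels between 1.15 and 1.85 on A_52_P334670. The dim Clock probe A_52_P279391 ran from -4.33 to -3.09, with knockout changes of 0.14 (95% interval -0.77 to 1.06) at 1 month and 0.04 (95% interval -0.88 to 0.95) at 2 months.

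**Figure D2:**
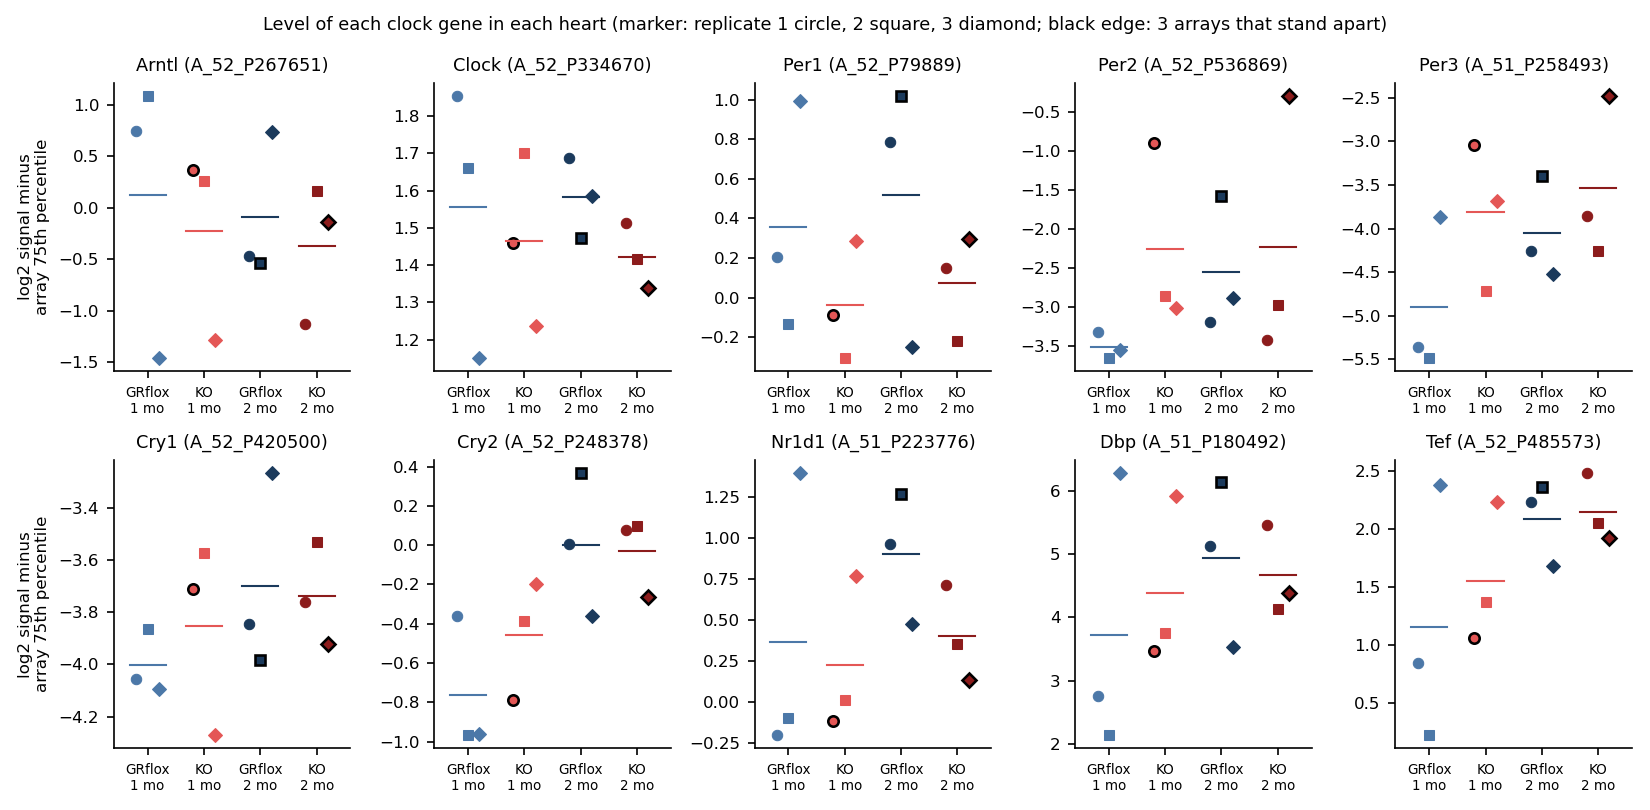
Level of the first-described probe of each gene in each heart, as log2 signal relative to the array's 75th percentile (vertical axis), by group (horizontal axis; KO is cardioGRKO, mo is months); horizontal lines are group means of 3 hearts and black edges mark the 3 arrays with most probes above background. Dbp runs from 2.14 to 6.28 and Clock from 1.15 to 1.85, while Per2 A_52_P536869 is highest on the 3 black-edged arrays.

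The dim probes of the loop need the array behind each heart. Per2 A_52_P536869 read -0.89, -1.57 and -0.29 on the 3 arrays with most probes above background and -3.65 to -2.86 on the other 9. A total of 5 of the 21 probes (23.8%) had their 3 highest levels on those arrays, as had 13.9% of all probes tested: Per2 A_52_P536869, Per3 A_51_P258493, Cry2 A_51_P135542, and Nr1d1 A_52_P130952 and A_52_P130961. Per3 A_51_P258493, the only probe of that gene, read -3.40 to -2.48 there and -5.48 to -3.68 on the others. The part of these arrays in such levels was not tested. Per2 A_51_P282760, the other probe of Per2, followed Dbp instead of those arrays. It read -4.23, -4.92 and -2.09 in the GRflox and -4.41, -4.06 and -2.36 in the cardioGRKO hearts at 1 month, and -2.35, -1.72 and -3.88 and -1.90, -3.16 and -3.07 at 2 months. Per2 is therefore described by 2 probes that disagree. Cry1, a repressor that is known to peak late in the cycle, ran from -4.27 to -3.27 on A_52_P420500 and from -6.03 to -3.17 on A_51_P302204.

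To see how closely each transcript followed Dbp among hearts of the same group, all probes were fitted with a mean for each group and the level of Dbp in each heart as a covariate. This fit was added after the levels had been seen. A slope is the log2 change of a probe for a change of 1 log2 unit of Dbp. The slope on Dbp passed for 0.0555% of the 32455 probes, which is 18 probes, and 4 of the 20 other member probes were among them. Per2 A_51_P282760 had the lowest p of all probes, with a slope of 0.74 (SE 0.05, adjusted p = 0.00569). Arntl had the next lowest, with -0.63 (SE 0.05, adjusted p = 0.014). Nr1d1 A_51_P223776 gave 0.37 (SE 0.03, adjusted p = 0.0247) and Tef A_52_P485573 gave 0.44 (SE 0.04, adjusted p = 0.0313). The dimmer Nr1d1 probes did not follow Dbp. A_52_P130952 gave 0.09 (SE 0.13, adjusted p = 0.966) and A_52_P130961 gave -0.14 (SE 0.20, adjusted p = 0.967), so the Nr1d1 call rests on A_51_P223776 alone. The other 3 Tef probes had positive slopes of 0.63, 0.40 and 0.23 with adjusted p of 0.0589, 0.1 and 0.326. Per1 gave 0.29 (SE 0.06, adjusted p = 0.283). The first-described probes of Clock (-0.11), Cry1 (-0.13), Per3 (0.30), Cry2 (0.06) and Per2 (-0.09) did not pass, with adjusted p from 0.562 to 0.985.

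The number of calls depended on the arrays and on the scaling. Over the 11 alternatives other than leaving out 1 array it ranged from 0 to 6 member probes. With median centring 1 member probe passed, with scan day as a block 2, and 0 with slide as a block or with the second scan day left out. Without GRflox_1month replicate 2 or cardioGRKO_1month replicate 3 no member probe passed in limma, and Arntl then had an adjusted p of 0.0986 and 0.102. The count was 1 without GRflox_1month replicate 3, GRflox_2month replicate 3, cardioGRKO_1month replicate 1, cardioGRKO_1month replicate 2 or cardioGRKO_2month replicate 3. It was 2 without GRflox_2month replicate 1, cardioGRKO_2month replicate 1 or cardioGRKO_2month replicate 2, and 3 without GRflox_1month replicate 1 or GRflox_2month replicate 2. With any 1 array left out, the Arntl slope stayed between -0.67 and -0.61, that of Nr1d1 between 0.32 and 0.39 and that of Tef between 0.38 and 0.47. Of these 12 fits the Arntl slope passed in 5, with an adjusted p of up to 0.372 in limma. The slopes of Nr1d1 and Tef passed in 1 fit each, with an adjusted p of up to 0.572 and 0.573. Without the 3 arrays with most probes above background no member probe passed, and the same slopes were -0.67, 0.37 and 0.46, with adjusted p of 0.242, 0.258 and 0.258.

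**Figure D3:**
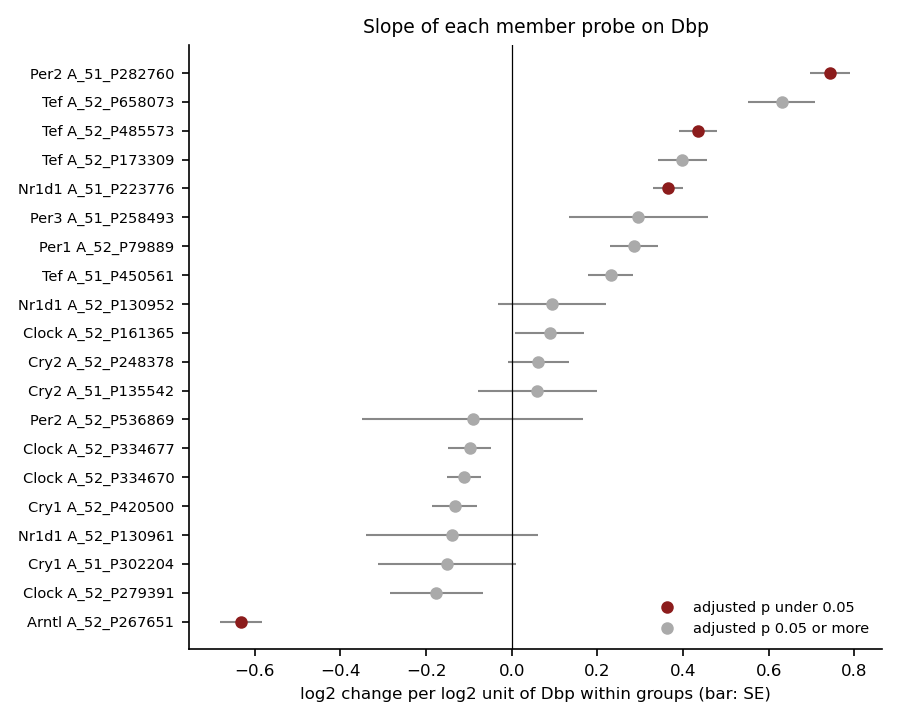
Slope on Dbp within groups (horizontal axis, log2 change per log2 unit of Dbp, points with bars of 1 SE) for each member probe other than that of Dbp (vertical axis). Red points, the 4 probes with an adjusted p under 0.05, are Per2 A_51_P282760 at 0.74, Tef A_52_P485573 at 0.44, Nr1d1 A_51_P223776 at 0.37 and Arntl at -0.63.

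The other probes that followed Dbp included further parts of the loop. Nr1d2, which encodes REV-ERBβ, had a slope of 0.40 (SE 0.04, adjusted p = 0.0355). Its levels ran from 0.08 in the heart with the least Dbp to 1.71 in the heart with the most, with the highest, 1.79, in cardioGRKO_2month replicate 1. Both probes of Nfil3 ran against Dbp, with slopes of -0.49 and -0.41 (adjusted p = 0.0246 for both). Ciart, which the array lists as Gm129, had a slope of 1.44 (SE 0.16, adjusted p = 0.0468). It was well above background on 6 of the 12 arrays, so its low values are bounds and the size of its slopes is not a measured one. Usp2, a clock-controlled protease gene, passed on its probe A_52_P255489 with 0.32 (SE 0.04, adjusted p = 0.0468). Its brighter probe A_51_P172663 had a like slope of 0.32 (SE 0.04) but did not pass (adjusted p = 0.0927). The remaining probes that passed were 2 each of Coq10b and C2 and 1 each of Tspan4, B3galt2, Adam19, Lonrf3 and the transcript AK088332. Hlf, which encodes a factor of the DBP and TEF family, gave 0.27 (SE 0.04, adjusted p = 0.158), and Bhlhe40 and Bhlhe41, repressors that bind E-boxes, gave 0.34 (adjusted p = 0.0951) and 0.30 (adjusted p = 0.306). Npas2, which can replace CLOCK, gave -0.34 (adjusted p = 0.707).

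With Arntl as the covariate 0.0339% of probes passed, which is 11 probes, and 4 of these were members: Dbp (slope -1.52, SE 0.11, adjusted p = 0.00647), Per2 A_51_P282760 (-1.15, SE 0.09, adjusted p = 0.00655), Tef A_52_P658073 (-0.997, SE 0.10, adjusted p = 0.0264) and Tef A_52_P485573 (-0.67, SE 0.07, adjusted p = 0.044). Both fits use the same 12 hearts and are not independent. Nr1d2, Nfil3 A_51_P111492 and Bhlhe40 also passed on Arntl, with slopes of -0.63, 0.64 and -0.55, as did Ciart, with the same limit on its size. The rest were both probes of Coq10b (-0.52 and -0.35) and the transcript AK088332 (1.36), which was well above background on 8 arrays. Nr1d1 A_51_P223776 did not pass on Arntl, with -0.56 (SE 0.07, adjusted p = 0.0527 in limma). Nor did A_52_P130952, with -0.09 (SE 0.20), or A_52_P130961, with 0.31 (SE 0.30).

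**Figure D4:**
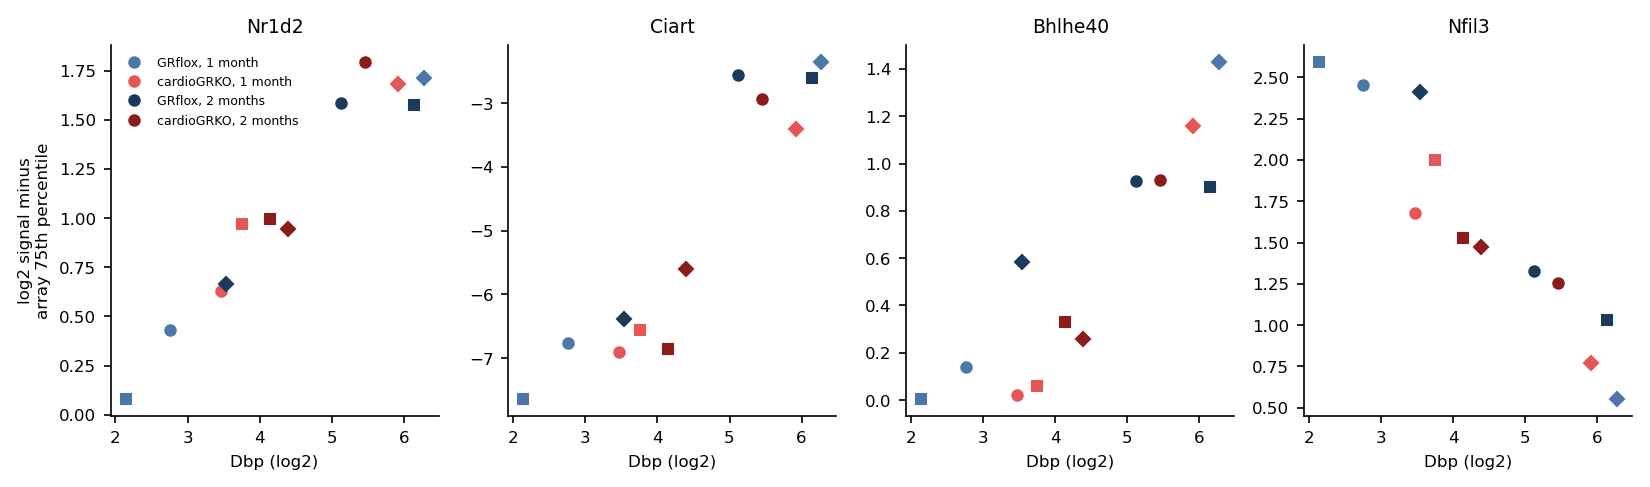
Levels of Nr1d2, Ciart, Bhlhe40 and Nfil3 (vertical axes) against Dbp (horizontal axes) in 12 hearts, all as log2 signal relative to the array's 75th percentile; colours mark groups and circles, squares and diamonds mark replicates 1, 2 and 3. Nr1d2 rises with Dbp from 0.08 to 1.71 and Nfil3 falls from 2.59 to 0.55.

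Among 16798 named genes besides the reference gene, with 1 probe each, those whose levels were most like Dbp across the 12 hearts were Nr1d2 (r = 0.97), Ankrd12 (0.96), Gstt2 (0.95), Coq10b (0.93) and Ciart (0.93). Those most opposed to Dbp were Nfil3 and Arntl (both -0.95), Ddit4 (-0.90), Spon2 (-0.88) and Lonrf3 (-0.88). Most like Arntl were Nfil3 (0.95), Ddit4 (0.93), Lonrf3 (0.92), Osr1 (0.88) and Creld2 (0.86). Most opposed to Arntl were Ankrd12 (-0.96), Nr1d2 and Dbp (both -0.95), Ppat (-0.94) and Nfx1 (-0.91). These values describe the likeness of patterns over hearts that share slides and groups.

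Marker lists of other cell types also differed between these hearts. A list score is the median over its genes of the log2 level minus the gene's mean over the 12 arrays. The adipocyte list, with 7 of 8 genes well above background on all arrays, scored -3.52 and -3.11 in the hearts with the highest Dbp levels, GRflox_1month replicate 3 and GRflox_2month replicate 2. The next highest Dbp hearts, cardioGRKO_1month replicate 3 and cardioGRKO_2month replicate 1, scored 0.92 and -0.25, and the 10 hearts other than the first pair lay between -0.65 and 1.65. Lymphocyte genes, 8 of 8 well above background on all arrays, scored -0.58, -0.60, -0.77 and 0.35 in those 4 hearts and -0.65 to 0.80 in the others. Their part in the clock levels was not tested, and in whole hearts fewer cells of a type and less RNA per cell cannot be told apart. Heart muscle genes scored between -0.29 and 0.31 over the 12 hearts, with 8 of 9 well above background on all arrays, and 1 of them, Ryr2, fell with the knockout over both ages (-0.44, SE 0.07, adjusted p = 0.0343).

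Against this spread no clock probe passed for the knockout. At 1 month limma called 0 of the 21 probes, where 0.0185% of all probes passed, and 0 had an unadjusted p under 0.05, where 5.67% of all had. At 2 months it called 0 of 21 against 0.105% of all, and 0 against 8.25% at the unadjusted level. For the mean of both ages it called 0 of 21 against 0.567%, and 0 against 11.9% unadjusted. For the difference of the knockout effect between ages 0% of all probes passed; 1 of 21 had an unadjusted p under 0.05, Clock A_52_P161365 (-1.16, SE 0.40, adjusted p = 1 in limma), against 1.4% of all probes. The median change over the 10 genes was 0.23 at 1 month and -0.10 at 2 months, beside 0.03 and -0.01 over all probes.

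The intervals show how wide the knockout effects remain. Dbp changed by 0.66 (SE 1.13, 95% interval -1.89 to 3.20, adjusted p = 0.921) at 1 month and by -0.27 (SE 1.13, 95% interval -2.82 to 2.28, adjusted p = 0.988) at 2 months. Arntl changed by -0.34 (95% interval -1.99 to 1.30) and -0.28 (95% interval -1.93 to 1.37). Clock, the steadiest, changed by -0.09 (95% interval -0.50 to 0.32) and -0.16 (95% interval -0.57 to 0.25). Per1 gave -0.39 (95% interval -1.23 to 0.45) and -0.44 (95% interval -1.28 to 0.39), and Nr1d1 gave -0.14 (95% interval -1.10 to 0.83) and -0.50 (95% interval -1.47 to 0.47). Tef gave 0.40 (95% interval -0.75 to 1.56) and 0.06 (95% interval -1.10 to 1.22), and Per3 gave 1.09 (SE 0.63) and 0.53 (SE 0.63). The brighter Per2 probe gave 1.26 (SE 0.85) and 0.32 (SE 0.85), with the levels of the 3 arrays described above. For Cry2 the interval was -0.24 to 0.85 at 1 month and -0.58 to 0.51 at 2 months. Cry1 gave 0.15 at 1 month and -0.04 at 2 months, and both signs turned under quantile normalization.

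Hearts of the 2 genotypes did not overlap for 2 of the 21 probes (9.52%) at 1 month, against 17.3% of all probes, and for 2 (9.52%) at 2 months, against 12.5%. At 1 month these were the dim probes Per2 A_52_P536869 and Nr1d1 A_52_P130961, higher in cardioGRKO. At 2 months they were Clock A_52_P334677 and A_52_P161365, lower in cardioGRKO. These shares were below the background.

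**Figure D5:**
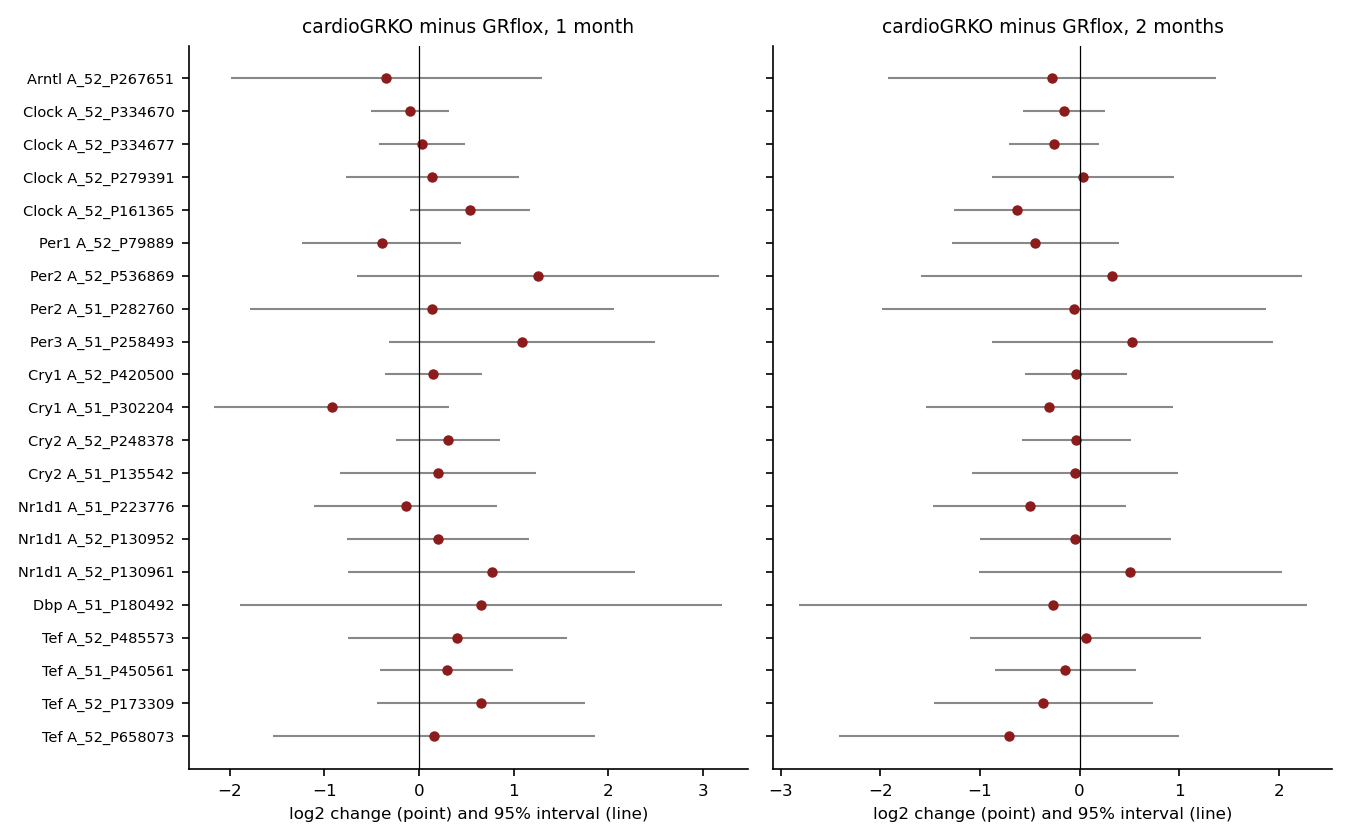
Log2 change in cardioGRKO against GRflox (horizontal axes, points with 95% intervals as lines) for the 21 probes (vertical axis) at 1 month (left) and at 2 months (right). All intervals include 0: the Dbp interval runs from -1.89 to 3.20 at 1 month and that of Clock A_52_P334670 from -0.50 to 0.32.

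With Dbp as a covariate the SE of the knockout effect was smaller for probes that included those of Arntl and Per1. The same held for Nr1d1 A_51_P223776, Tef A_52_P485573 and Per2 A_51_P282760. Dbp was measured in the same hearts and the fit was added after the levels had been seen, so these values compare genotypes at equal Dbp and are not the whole effect. Over both ages Nr1d1 A_51_P223776 changed by -0.39 (SE 0.09, unadjusted p = 0.0017 in limma, adjusted p = 0.105). Without Dbp in the fit it changed by -0.32 (SE 0.30). The other Nr1d1 probes went the other way, A_52_P130952 by 0.06 (SE 0.31) and A_52_P130961 by 0.67 (SE 0.49). Tef A_52_P485573 changed by 0.15 (SE 0.11) and Per2 A_51_P282760 by -0.10 (SE 0.12). Per1 changed by -0.47 (SE 0.14, unadjusted p = 0.00884 in limma, adjusted p = 0.201), against -0.42 (SE 0.26) without Dbp. Arntl changed by -0.19 (SE 0.12, adjusted p = 0.543), where the SE had been 0.52. No clock probe passed in this fit, and the 0.105 of Nr1d1 was their lowest adjusted p for the knockout.

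Between the ages no clock probe passed either. In GRflox hearts limma called 0 of 21 at 2 months against 1 month, where 1.45% of all probes passed; 4 of 21 (19%) had an unadjusted p under 0.05, against 15.6%, and 3 (14.3%) did not overlap, against 22.1%. The 4 were Cry2 A_52_P248378 (0.77, SE 0.24, adjusted p = 0.173), Clock A_52_P161365 (0.84, SE 0.28, adjusted p = 0.194), Tef A_51_P450561 (0.93, SE 0.31, adjusted p = 0.198) and Tef A_52_P173309 (1.42, SE 0.49, adjusted p = 0.206). The median change over the 10 genes was 0.65, and that over the 21 probes 0.76, beside 0.14 over all probes. In cardioGRKO hearts these were 0.14, 0.18 and 0.09. Since slide 1 held only the GRflox hearts of 1 month, age and slide cannot be told apart in GRflox hearts. Without GRflox_1month replicate 3, the heart with the most Dbp, Tef A_52_P173309 alone of the 21 passed (adjusted p = 0.04). Under normexp background with quantile normalization Cry2 A_52_P248378 alone passed (adjusted p = 0.0441). In cardioGRKO hearts 0 of 21 passed, against 0.404% of all; 0 had an unadjusted p under 0.05, against 13.9%, and 2 (9.52%), both of Tef, did not overlap, against 24.4%. Of 6 fibroblast genes, 3 collagen genes fell with age in both genotypes, in GRflox by -1.52 (Col1a1), -1.23 (Col1a2) and -1.59 (Col3a1), with adjusted p of 0.0154, 0.0181 and 0.00478. In cardioGRKO they fell by -1.35, -1.13 and -1.44 (adjusted p = 0.049, 0.049 and 0.014). Of 6 macrophage genes 1 fell with age in GRflox hearts, Cd68 (-0.60, SE 0.11, adjusted p = 0.0285). The part of these cell types in the age changes was not tested.

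Other genes of the pathway were taken as lists. Of 13 further loop genes tested, 0 passed in limma for the knockout at either age or in the mean (0 at an unadjusted p under 0.05). Of all probes, 5.67% at 1 month, 8.25% at 2 months and 11.9% in the mean had an unadjusted p under 0.05. The knockout changes at 1 month and 2 months were 0.35 and -0.03 for Nr1d2, -0.39 and -0.17 for Nfil3, and -0.11 and -0.30 for Bhlhe40. They were 0.15 and 0.07 for Npas2, 0.37 and -0.02 for Bhlhe41, and 0.28 and -0.21 for Hlf, whose fit lacks 1 array. Of 12 kinases and ubiquitin ligases of PER and CRY, 0 passed in any of the 6 comparisons (0 to 2 at an unadjusted p under 0.05). The count was 2 for the knockout at 2 months, beside 8.25% of all probes, and for age in cardioGRKO hearts, beside 13.9%. The median knockout change of the 12 genes was -0.0041 at 1 month and -0.02 at 2 months. Of 14 clock-controlled output genes, 1 fell with the knockout in the mean of both ages, Pik3r1 (-0.77, SE 0.11, adjusted p = 0.0243), a regulatory subunit of PI3-kinase. That is beside 0.567% of all probes, and 5 of the 14 had an unadjusted p under 0.05, beside 11.9%. For age in GRflox hearts 7 of the 14 had an unadjusted p under 0.05, beside 15.6% of all probes. Within that list 2 rose with age in GRflox hearts, Klf15 (0.85, SE 0.15, adjusted p = 0.031), a metabolic transcription factor, and Bdh1 (1.17, SE 0.23, adjusted p = 0.045), a ketone body enzyme. In cardioGRKO hearts Bdh1 rose by 2.31 (SE 0.23, adjusted p = 0.0137); no probe passed for the difference between genotypes. Of 9 glucocorticoid-induced genes, Per1 among them, 0 passed in any comparison (0 to 3 at an unadjusted p under 0.05). For the knockout the count was 3 in the mean of both ages, beside 11.9% of all probes. It was 2 at 2 months, beside 8.25%, and 1 at 1 month, beside 5.67%. For age it was 1 in GRflox hearts, beside 15.6%, and 0 in cardioGRKO hearts, beside 13.9%. The median knockout change of the 9 genes over both ages was -0.14, beside 0.01 over all probes.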

How the data were processed

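Total RNA of 12 hearts was measured on 1-colour (Cy3) Agilent arrays, 1 per heart. Per the submitters' processing notes, scans were read with Agilent Feature Extraction 9.5. The deposited scanner files hold a processed signal, an intensity on a linear scale made by the authors, and the deposited value table equals it. Control and outlier spots were left out and spots of a probe averaged. The log2 intensity minus the 75th percentile of each array was fitted with limma 3.58.1 (R 4.3.3), 1 mean per group, for the 32456 probes well above background on at least 3 arrays. Two-sided p-values were adjusted by Benjamini-Hochberg over all probes; 0.05 was the threshold. Correlations used permutation tests (SciPy 1.17.1, Python 3.11.15), two-sided. Groups came from the labels; whether hearts of a group share litters is not given in the sources used here.

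The members, lists and tests were chosen with earlier results of these data known. The text names all 21 member probes, 7 other loop genes (Nr1d2, Npas2, Hlf, Nfil3, Ciart, Bhlhe40, Bhlhe41), list members that passed, Nr3c1, and the 5 genes most and least like Arntl and Dbp; probes that passed on Dbp or Arntl were added after their values were seen. Some results of the lists are not reported here. Alternatives were other scalings, the value table, filters, 1 probe per gene, slide, scan day and replicate terms, another moderation, and left-out arrays. Fits were tested on simulated data. With 3 arrays per group their number limits the precision.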

Additional observations from a re-analysis of the deposited data

How the results depend on the processing

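The number of clock probes that passed stayed at 0 under every alternative run for the knockout comparisons and for age in cardioGRKO hearts. For age in GRflox hearts it was 1 with normexp background and quantile normalization, and 0 to 1 with 1 array left out. The number that followed Dbp was 4; it was 1 with median centring, 2 without a filter on dim probes, 2 with scan day as a block, 0 with slide as a block, 0 without the second scan day, 0 without the 3 arrays with most probes above background, and 0 to 3 with 1 array left out. With fewer arrays or more terms, fewer degrees of freedom remain; otherwise the cause was not tested. Of the correlations with Arntl, median centring gave 0.57 for Clock, -0.48 for Per1, -0.54 for Nr1d1, -0.83 for Per3 and -0.23 for Per2, quantile normalization gave -0.65 for Per3, and normexp gave -0.0041 for Per2. Slide as a fixed block could be fitted only for the knockout at 2 months and for age in cardioGRKO hearts, without slide 1, since slide 1 holds a single group.

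Signs of changes that never passed turned as follows. For the knockout at 1 month, Cry1 was -0.076 with median centring and -0.17 with quantile normalization, and Nr1d1 was 0.010 with scan day as a block, 0.029 without the second scan day and 0.029 without the 3 arrays. At 2 months, Cry1 was 0.12 with quantile normalization and 0.052 without the second scan day. Cry2 was 0.31 with slide as a fixed block, 0.029 with slide as a random block, 0.11 with scan day as a block, 0.084 without the second scan day and 0.26 without the 3 arrays. Dbp was 0.88 with the slide block, 0.024 with the scan day block and 0.47 without the 3 arrays. Per2 was -0.19 with the slide block, -0.50 with the scan day block, -0.65 without the second scan day and -0.16 without the 3 arrays. The slope of the brighter Per2 probe on Dbp was 0.076 with the scan day block, 0.061 without the second scan day and 0.016 with the slide block; that of Cry2 was -0.0062 without the 3 arrays and -0.0070 with the slide block. With 1 array left out, the ranges at 1 month were -1.13 to 0.19 for Arntl, -0.29 to 0.059 for Clock, -0.14 to 1.93 for Dbp, -0.42 to 0.37 for Nr1d1 and -0.061 to 1.02 for Tef. At 2 months they were -0.54 to 0.13 for Arntl, -0.18 to 0.17 for Cry1, -0.21 to 0.15 for Cry2, -0.97 to 0.33 for Dbp, -0.65 to 0.92 for Per2 and -0.14 to 0.20 for Tef. The slope of Per2 ranged from -0.22 to 0.013.

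The replicate numbers were not taken as pairs. Between genotypes, deviations of same-numbered hearts correlated at 0.19, 0.25 and -0.02 at 1 month and at 0.49, -0.04 and 0.15 at 2 months. Between ages they correlated at -0.275, -0.202 and -0.122 in GRflox and at -0.683, 0.263 and -0.565 in cardioGRKO hearts. Values of differently numbered hearts were not set beside them. With the replicate block 0 of the 21 probes passed in each comparison, and the calls among all probes for the knockout were 2 at 1 month and 4 at 2 months.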
